A study of Mus musculus with 4 samples.

Results

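Cycling intestinal CD4 T cells are the cells that the authors' deposited cluster annotation names Cycling. They were taken from the deposited table by that name alone and number 131 of 5080 cells. Of these, 77 were among the 2975 cells labelled TGFβR-KO, 45 among the 1007 labelled TGFβR-WT and 9 among the 1098 labelled TGFβR-CA.

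Transcripts were counted in single droplets from their 3′ ends. The cells, YFP+CD4+ T cells, had been sorted out of small intestines of mice 7 to 8 months old. All groups carry *Il17a-cre* and a *Rosa26-stop-yfp* reporter, so YFP marks cells that have expressed *Il17a*, and Cre acts in these cells and not in the rest of the animal. TGFβR-KO mice also carry floxed alleles of *Tgfbr2*, TGFβR-CA mice a constitutively active form of *Tgfbr1* behind a floxed stop cassette, and TGFβR-WT mice neither. Each of the 4 samples (1 TGFβR-KO, 1 TGFβR-CA and 2 TGFβR-WT) is a pool of mice, and the methods give a first batch of TGFβR-KO beside 1 TGFβR-WT pool and a second of TGFβR-CA beside the other. TGFβR-WT cells carry 2 name endings, a larger set of 709 cells with 41 Cycling cells and a smaller set of 298 cells with 4. Most cell barcodes shared between sets, described below, join TGFβR-KO to the larger set, and whether this marks a common batch was not tested. No label ties either set to a sample, so the pool of TGFβR-KO's own batch could not be named. TGFβR-WT was therefore pooled, with the larger and the smaller WT set given beside it. The clusters were drawn from the very cells compared here, and only TGFβR-WT has a second sample, so what follows is a description by size, with no test and no p-value.

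A dividing T cell passes through G1, S phase, in which the genome and its histones are doubled, G2 and mitosis. E2F transcription factors switch on the replication genes as cyclin-dependent kinases (CDKs) inactivate the RB proteins, and a second wave of genes for the spindle, the kinetochore and cytokinesis follows in G2 and M. In tissues, most effector and memory T cells are out of cycle, held there by CDK inhibitors and quiescence factors and kept alive by survival cytokines such as interleukin-7.

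Values are corrected UMIs (transcripts counted by unique molecular identifiers and set by the authors to a common depth) per 10000 corrected UMIs, with all cells of a group added up first. Ratios are log2 of Cycling over the 7 other clusters of the same condition after 0.1 was added to each level, and a gene is called higher or lower at 2 times, which is 1 on the log2 scale. Cycling cells held a median of 4271 corrected UMIs and 1919 detected genes in TGFβR-KO (other cells 3777 and 1478), and 3848 and 1657 in TGFβR-WT (other cells 3649 and 1530).

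Some Cycling cells share a cell barcode with a cell of another set, which had to be examined first. There are 16 such barcodes in the table, 14 of them in TGFβR-KO and in the larger WT set, and 11 of the 16 had both of their cells in the Cycling cluster. Among Cycling cells, 11 of 77 labelled TGFβR-KO and 13 of 41 in the larger set are affected, 14.3% and 31.7%, against 0.138% and 0.299% of the other cells of these sets. In the 11 pairs, Pearson's r between the expression of both cells was 0.671 to 0.725 with a median of 0.708, and the median over the 3146 other combinations of a TGFβR-KO and a larger-set Cycling cell was 0.566. The TGFβR-WT partner was the most similar of all 41 larger-set Cycling cells in 11 of 11 pairs. One cell of each pair had 1701 to 2009 detected genes and the other 1037 to 1318. The richer cell carried the TGFβR-KO label in 7 pairs and the TGFβR-WT label in 4. The cell labelled TGFβR-KO was the most similar of all 77 in 10 of 11 pairs, and the highest r of the other combinations was 0.713. Which label these cells belong to was not tested. The main counts and shares and the marker genes are also given without them.

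The 5 genes that mark the cluster were high in it in every set. *Mki67*, which encodes the chromosome-coating protein Ki-67 (chromosome 7, 135689784 to 135716361, mm10), was at 12.2 in Cycling cells labelled TGFβR-KO and 0.282 in the other clusters. It was at 7.24 against 0.225 in the larger WT set, 11.7 against 0.260 in the smaller set and 4.82 against 0.161 in TGFβR-CA. The other clusters thus stayed below 0.3 in all 4 sets and Cycling cells above 4. At least 1 UMI of *Mki67* was found in 67 of 77 Cycling cells labelled TGFβR-KO (87.0%, exact 95% interval 77.4 to 93.6) and in 8.90% of the other cells, and in 28 of 45 labelled TGFβR-WT (62.2%, 46.5 to 76.2) against 6.34%.

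*Top2a*, the topoisomerase that untangles sister chromatids (chromosome 11, 98992943 to 99024189), was at 14.1, 12.4, 16.2 and 2.28 in Cycling cells of TGFβR-KO, the larger and smaller WT set and TGFβR-CA, against 0.212 to 0.377 elsewhere. *Stmn1*, which encodes the microtubule-destabilizing protein stathmin, was at 12.5, 8.57, 20.8 and 12.2 in the same order, against 0.101 to 0.142. *Birc5*, the survivin of the chromosomal passenger complex, was at 8.43, 6.11, 7.10 and 4.57, with at most 0.0255 elsewhere. *Rrm2*, the small subunit of ribonucleotide reductase that supplies deoxynucleotides, was at 6.51, 4.85, 9.13 and 2.03, with at most 0.0735 elsewhere. All markers but *Stmn1* were thus lowest in the 9 Cycling cells labelled TGFβR-CA. There *Top2a* and *Rrm2* each had a UMI in 4 of 9, while *Stmn1* had one in 9 of 9. Without cells with a shared barcode, the log2 ratio of these genes was 4.90 (*Top2a*) to 5.95 (*Birc5*) in TGFβR-KO and 4.60 (*Mki67*) to 5.71 (*Stmn1*) in TGFβR-WT.

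**Figure D1:**
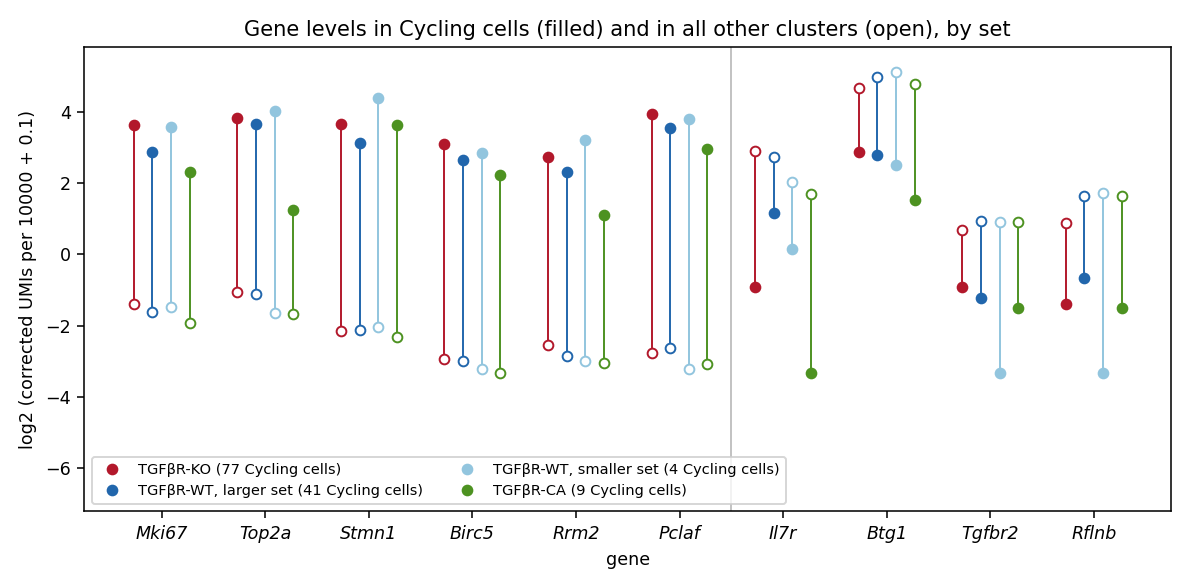
Levels of 10 genes, as log2 of corrected UMIs per 10000 plus 0.1, in Cycling cells (filled) and in all other clusters of the same set (open), with 1 line per set. The genes left of the vertical line were higher in Cycling cells in all 4 sets and those right of it lower in all 4, with the smaller WT set resting on 4 Cycling cells.

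The cells were T cells. *Cd3e*, a chain of the T cell receptor complex, had a UMI in 88.3% of Cycling cells labelled TGFβR-KO and 84.4% of those labelled TGFβR-WT, and *Cd4* in 57.1% and 60%. The 12 genes defining T cells were together at 72.3 per 10000 in Cycling cells against 112 in the other clusters of TGFβR-KO, and 78.9 against 134 in TGFβR-WT. Of the 12, 0 were lower by 2 times in TGFβR-KO and 3 in TGFβR-WT, against 3.59% and 13.6% of all genes tested. None was lower in both, against 2.13% of all genes, so for 12 genes this says little. *Cd3e* itself was at 5.76 against 10.6 and 6.93 against 13.5. Genes of other cells were then summed. The summed level of 10 B cell genes in Cycling cells was 0 to 2.54 over the 4 sets, the top value from *Ighm* alone in TGFβR-CA, and 1.31 to 3.37 in the other clusters. That of 10 epithelial genes reached 0.217, that of 5 γδ T cell genes 0.0929 and that of 6 CD8 T and NK cell genes 0.508. That of 6 myeloid genes, mostly *Cst3*, was 1.02 to 2.54 in Cycling cells and 1.91 to 2.22 in the other clusters. In Cycling cells labelled TGFβR-WT, 8 of the B cell genes, 9 of the epithelial and all 5 of the γδ genes were at 0. Scrublet, a doublet caller, marked 43 cells of the table, none of them a Cycling cell. It marked only 4 of 2975 cells labelled TGFβR-KO and 1 of 709 in the larger WT set, where it cannot be said to have worked.

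Across all genes, 9810 had at least 50 corrected UMIs in the table. In TGFβR-KO, 670 of these (6.83%) were higher and 352 (3.59%) lower in Cycling cells, and in TGFβR-WT 643 (6.55%) were higher and 1333 (13.6%) lower. Both conditions shared 402 higher genes (4.1%) and 209 lower ones (2.13%), and 394 and 166 without cells with a shared barcode. The median log2 ratio of all genes was 0.02 in TGFβR-KO and -0.21 in TGFβR-WT, so a ratio near 0 in TGFβR-WT lies above the middle of its genes. With 0.5 added in place of 0.1, which damps low genes, 216 genes were higher and 41 lower in both.

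**Figure D2:**
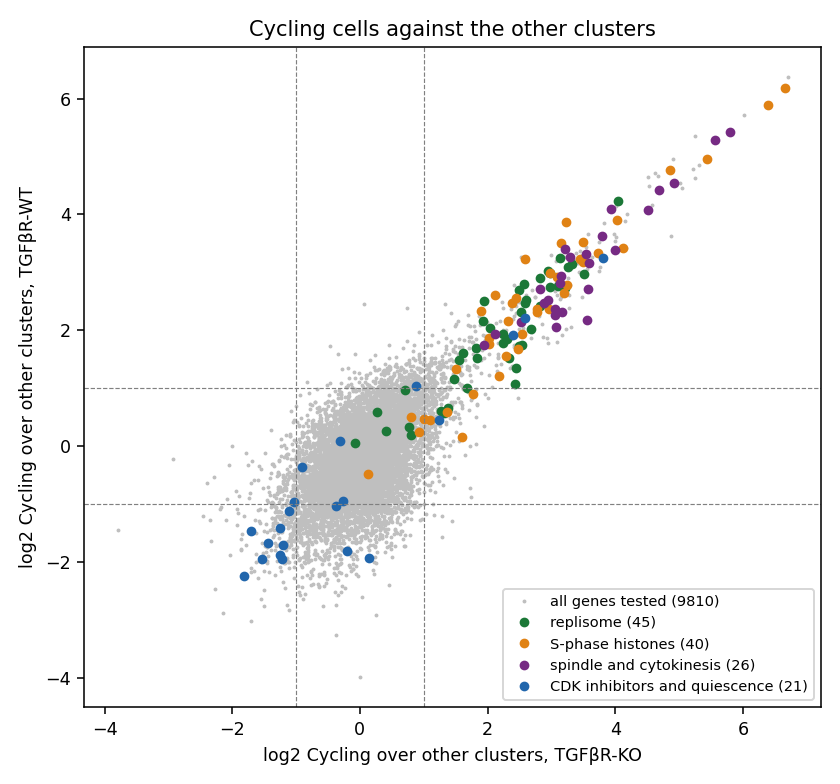
Log2 ratio of Cycling cells to the other clusters in TGFβR-KO (x) and TGFβR-WT (y) for 9810 genes (gray), with 4 gene lists in color and dashed lines at 2 times. All 26 spindle and cytokinesis genes and 36 of 45 replisome genes lie beyond 2 times in both conditions, and 9 of 21 CDK inhibitors and quiescence genes lie below it in both.

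The genes that license and copy DNA were higher as a group. Of 45 replisome genes tested, 39 were higher in TGFβR-KO, 36 in TGFβR-WT, with 36 shared by both, with a median log2 ratio of 2.43 and 1.93. *Mcm3*, a subunit of the helicase that opens the origins, was at 3.69 against 0.390 in TGFβR-KO and 4.46 against 0.459 in TGFβR-WT. *Mcm5*, of the same helicase, was at 3.16 against 0.240 and 3.0 against 0.262. *Clspn*, whose product claspin monitors the fork, was at 2.17 against 0.0376 and 1.94 against 0.00845. *Gmnn*, which encodes the licensing inhibitor geminin, was at 2.91 against 0.203 and 2.94 against 0.242, so the licensing inhibitor was high alongside the licensing genes. The exceptions included *Orc2*, a subunit of the origin recognition complex, at 0.248 against 0.268 and 0.352 against 0.338, and *Orc5*, at 0.248 against 0.0986 and 0.117 against 0.0902.

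Of 25 genes of nucleotide supply, 20 were higher in TGFβR-KO, 18 in TGFβR-WT, with 16 shared by both. *Tyms*, the thymidylate synthase, was at 3.90 against 0.165 in TGFβR-KO and 3.41 against 0.107 in TGFβR-WT, and *Tk1*, the thymidine kinase of the salvage route, at 2.01 against 0.0314 and 2.06 against 0.0225. These serve thymidine, which only DNA needs. *Adss*, a purine enzyme that serves RNA as well, was at 1.05 against 0.872 and 1.12 against 0.933. Among DNA repair genes 14 of 30 were higher in TGFβR-KO, 10 in TGFβR-WT, with 9 shared by both. *Atm*, the kinase that signals double-strand breaks, was at 0.310 against 0.348 and 0.352 against 0.448.

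Replication-dependent histone genes, whose transcripts end in a stem-loop and mostly lack a poly(A) tail, were nevertheless counted in large numbers. Of 40 tested, 37 were higher in TGFβR-KO, 32 in TGFβR-WT, with 32 shared by both. *Hist1h1b*, a linker histone, was at 15.9 against 0.0583 in TGFβR-KO and 10.2 against 0.0423 in TGFβR-WT, and *Hist1h2ae*, an H2A gene, at 13.2 against 0.0583 and 11.2 against 0.0902. Histone genes of one class are near-identical copies, so how reads were divided among them is uncertain. Summed over the 55 histone genes in the table, the level in Cycling cells was 96.5 in TGFβR-KO, 67.9 and 88.7 in the larger and smaller WT set and 18.8 in TGFβR-CA, and 3.72 to 6.94 in the other clusters. The 9 Cycling cells labelled TGFβR-CA thus stood well below those of the other sets. Of 17 histone variants and chaperones, 13 were higher in TGFβR-KO, 13 in TGFβR-WT, with 12 shared by both. *H2afx*, the variant marked at DNA breaks, was at 6.10 against 0.537 and 4.46 against 0.561, and *H3f3b*, a gene for histone H3.3, at 15.6 against 15.9 in TGFβR-KO and 12.5 against 14.6 in TGFβR-WT.

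Genes of mitosis gave the highest median ratios. Of 22 mitotic cyclins, kinases and passenger complex genes, 21 were higher in TGFβR-KO, 21 in TGFβR-WT, with 20 shared by both, with medians of 3.55 and 3.11. *Cdk1*, the kinase that drives entry into mitosis, was at 4.03 against 0.0807 and 3.47 against 0.0423, and its partner *Ccnb2*, cyclin B2, at 4.83 against 0.0242 and 2.88 against 0.00282. All 26 spindle and cytokinesis genes were higher in both conditions. *Nusap1*, a spindle protein, was at 5.95 against 0.0278 and 4.23 against 0.0113. At the kinetochore, 16 of 28 genes were higher in both, among them *Cenpf* at 4.93 against 0.0314 and 2.53 against 0.00563, while *Zwint* was at 0.651 against 0.672 and 0.470 against 0.955. Of 18 genes of the anaphase-promoting complex, 4 were higher in both, and the top of them were the activator *Cdc20* (2.70 against 0.0170 in TGFβR-KO) and the inhibitor *Fbxo5* (2.57 against 0.0690), whereas the core subunit *Cdc27* was at 0.217 against 0.214.

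Many of these genes passed the minimum of 50 UMIs only through their level in Cycling cells, so their counts describe the cluster and support nothing beyond it. Where 50 UMIs were required in cells outside the cluster, a limit set after seeing the data, 14 of 14 spindle and cytokinesis genes, 8 of 10 mitotic genes, 31 of 40 replisome genes and 26 of 34 histone genes were higher in both.

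**Figure D3:**
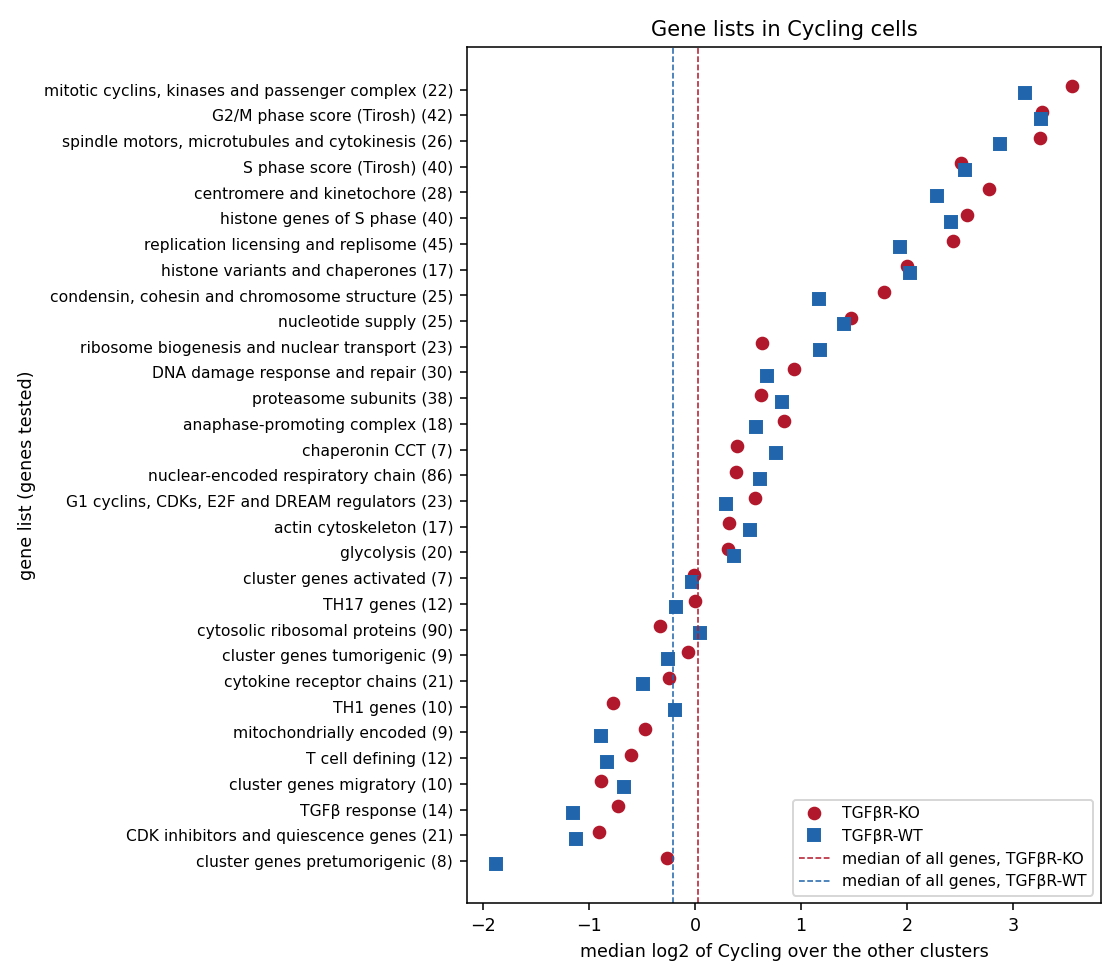
Median log2 ratio of Cycling cells to the other clusters for gene lists with at least 7 genes tested (number in brackets), in TGFβR-KO (circles) and TGFβR-WT (squares), with the median of all genes as dashed lines. Lists of mitosis and S phase lie highest, and the list of CDK inhibitors and quiescence genes has medians of -0.91 and -1.12.

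Since these genes are known to share promoter elements, RefSeq promoters (250 bases before to 50 after the start, GRCm38.p6) were searched on both strands for TTTGAA, the element called CHR of late cell cycle genes, CCAAT, the box read by NF-Y, and TTTGGCG or TTTCCCG, forms of the E2F element. Promoters of 2 late genes, *Mki67* and *Ccnb2*, and of 2 replication genes, *Mcm3* and *Mcm5*, show the arrangement, with every match in capitals, in either orientation.
Mki67 (chr7:135716330-135716629, minus strand): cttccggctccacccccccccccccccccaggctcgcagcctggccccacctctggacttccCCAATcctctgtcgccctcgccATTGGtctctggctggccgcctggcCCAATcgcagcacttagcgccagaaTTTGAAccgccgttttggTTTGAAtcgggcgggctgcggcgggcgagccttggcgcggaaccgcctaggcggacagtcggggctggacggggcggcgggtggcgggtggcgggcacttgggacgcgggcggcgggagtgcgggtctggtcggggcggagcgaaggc
Ccnb2 (chr9:70421505-70421804, minus strand): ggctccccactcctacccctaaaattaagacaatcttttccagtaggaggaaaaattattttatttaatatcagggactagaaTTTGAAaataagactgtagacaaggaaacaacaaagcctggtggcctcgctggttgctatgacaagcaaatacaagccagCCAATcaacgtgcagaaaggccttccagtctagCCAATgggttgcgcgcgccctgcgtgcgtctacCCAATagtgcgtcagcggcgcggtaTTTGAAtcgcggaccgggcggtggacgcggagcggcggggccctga
Mcm3 (chr1:20820263-20820562, minus strand): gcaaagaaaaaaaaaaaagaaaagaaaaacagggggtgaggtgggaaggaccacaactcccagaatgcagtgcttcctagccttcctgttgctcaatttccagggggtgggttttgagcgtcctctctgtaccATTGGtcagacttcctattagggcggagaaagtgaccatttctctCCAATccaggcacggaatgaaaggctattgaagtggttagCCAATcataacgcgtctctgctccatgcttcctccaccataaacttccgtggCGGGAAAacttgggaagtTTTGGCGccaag
Mcm5 (chr8:75109259-75109558, plus strand): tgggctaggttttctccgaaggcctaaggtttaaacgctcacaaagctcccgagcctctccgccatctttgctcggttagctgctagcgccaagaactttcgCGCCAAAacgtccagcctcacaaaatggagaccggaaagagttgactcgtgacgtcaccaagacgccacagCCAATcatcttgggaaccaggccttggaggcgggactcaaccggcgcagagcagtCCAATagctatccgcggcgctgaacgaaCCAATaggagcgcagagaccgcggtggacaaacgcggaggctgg
The late promoters held 2 TTTGAA and 3 CCAAT matches each and no E2F form, and the *Mcm* promoters held 3 CCAAT matches each, at least 1 E2F form and no TTTGAA.

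Over whole lists the same letters were unevenly spread. TTTGAA occurred in 17.9% of all 32851 mouse promoters, in 30 of 40 promoters of the G2/M list (75%, from 37 of 42 genes), in 76.9% of the spindle list (23 of 26 genes) and in 17.8% of the replisome list (36 of 45 genes). TTTGAA together with CCAAT occurred in 6.95% of all promoters and 62.5% of those of the G2/M list. An E2F form occurred in 4.84% of all promoters, 44.4% of the replisome list and 15% of the G2/M list. Among the 402 genes higher in both conditions, 339 had a promoter in the RefSeq set. Of their 394 promoters, 29.2% held TTTGAA and 20.8% an E2F form. Fewer than 80% of the genes tested, of the S list and of the genes lower in both had a promoter there, so no share is given for them. All mouse promoters are thus the only background given. They include those of genes not tested here, so they are not matched to the lists, and the excess over the genes tested may differ.

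Genes known to hold cells out of cycle were divided. Of 21 CDK inhibitors and quiescence genes, 10 were lower and 4 higher in TGFβR-KO, 12 and 4 in TGFβR-WT, and 9 and 3 in both. With 0.5 added, 4 were lower in both. *Btg1*, an antiproliferative gene of resting lymphocytes, was at 7.16 against 25.3 in TGFβR-KO, 6.84 against 31.3 and 5.58 against 34.2 in the TGFβR-WT sets and 2.79 against 27.2 in TGFβR-CA. Cycling cells were lower in all 4 sets, yet *Btg1* still had a UMI in 62.3% of them in TGFβR-KO, against 98.3% of the other cells. *Txnip*, which restrains glucose uptake, was at 0.774 against 2.42 and 0.470 against 2.10. The members higher in both were *Cdkn3*, a phosphatase made in mitosis despite its inhibitor name, at 1.55 against 0.0179 in TGFβR-KO, and the INK4 genes *Cdkn2c*, at 1.64 against 0.191, and *Cdkn2a*, at 0.836 against 0.0780. In TGFβR-WT they were at 0.881 against 0.00282, 1.47 against 0.239 and 0.352 against 0.0197.

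Regulators upstream of S phase were mixed. Of 23 G1 cyclins, CDKs, E2F and DREAM genes, 10 were higher in TGFβR-KO, 8 in TGFβR-WT, with 8 shared by both. *E2f1* was at 0.898 against 0.0323 and 1.12 against 0.0507, and the repressor *E2f8* at 1.02 against 0.00448 and 0.705 against 0. *Ccnd2*, the D-type cyclin that acts before S phase, was at 1.86 against 3.67 and 2.41 against 3.21, and *Lin37*, a subunit of the DREAM repressor, was at 0.341 against 0.413 and 0.176 against 0.383.

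Outside the cell cycle lists, *Pclaf*, a partner of the sliding clamp PCNA (chromosome 9, 65890237 to 65903266), had the highest ratio. It was at 15.2, 11.6, 13.7 and 7.61 in Cycling cells of TGFβR-KO, the larger and smaller WT set and TGFβR-CA, and at most 0.0637 elsewhere. A UMI of *Pclaf* was found in 73 of 77 Cycling cells labelled TGFβR-KO and 40 of 45 labelled TGFβR-WT, more than of *Mki67*, and in 1.04% and 0.936% of the other cells. Next came *Cdkn3*, above, *Arhgap11a*, which acts in cytokinesis (2.01 against 0.0878 in TGFβR-KO, 0.940 against 0.0310 in TGFβR-WT), *Mxd3*, of the MYC network (0.960 against 0.00896, 0.529 against 0.00282), and *Diaph3*, an actin-nucleating formin (1.46 against 0.105, 0.998 against 0.0423). *Syce2*, known from the synaptonemal complex of meiosis, was at 0.929 against 0.0672 and 0.705 against 0.0704. *Lockd*, a long noncoding RNA next to the CDK inhibitor gene *Cdkn1b*, was at 2.63 against 0.323 and 2.17 against 0.251. Lowest by the same order were *Rflnb*, a filamin-binding protein (0.279 against 1.73, 0.470 against 3.06), *Ypel3*, tied to growth arrest (0.465 against 2.39, 0.411 against 3.67), *Jchain*, a plasma cell gene at 0.0620 against 0.566 and listed at 0 against 0.268, and the histone demethylases *Kdm5b* (0.0620 against 0.488, 0.117 against 0.654) and *Kdm7a* (0.248 against 1.03, 0.0587 against 1.19).

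Most genes of the proteasome and of respiration differed by less than 2 times. Of 38 genes on the proteasome list, 1 was higher in TGFβR-KO and 12 in TGFβR-WT. *Psmc3ip* alone was higher in both, and its product is a recombination factor and not a proteasome subunit. The list's median log2 ratio was 0.62 in TGFβR-KO and 0.82 in TGFβR-WT. Cycling was nevertheless the highest of the 8 clusters for 22 of these 38 genes in both conditions (57.9%), against 10.4% of all genes tested. The nuclear genes of the respiratory chain behaved alike, with 2 of 86 higher in TGFβR-KO, 15 in TGFβR-WT, the 2 among them, medians of 0.39 and 0.61, and Cycling highest for 47 of 86 (54.7%). Mitochondrially encoded genes lay below 0, with medians of -0.47 and -0.89. *mt-Nd2*, a subunit of complex I, was at 13.9 against 28.3 and 17.2 against 31.9, and Cycling was the highest cluster in both conditions for none of the 9 tested. Cells above 10% mitochondrial UMIs had been removed by the authors. *Ran*, the GTPase of nuclear transport and spindle assembly, was at 10.1 against 2.59 and 11.2 against 2.89, and of 23 genes of ribosome biogenesis and nuclear transport 9 were higher in TGFβR-KO, 13 in TGFβR-WT, with 9 shared by both. Among 20 glycolysis genes, TGFβR-KO had 2 higher and none lower, while TGFβR-WT had 4 higher and 1 lower. The shares of all genes tested that were higher are 6.83% and 6.55%. Only *Tpi1* was higher in both, at 2.82 against 1.25 and 4.23 against 1.19. As 4.1% of all genes tested were higher in both, 1 of 20 says little about glycolysis.

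Among receptors of survival and TGFβ signals, *Il7r* and *Tgfbr2* were lower in both conditions. *Il7r*, the interleukin-7 receptor (chromosome 15, 9505788 to 9530176), was at 0.434 in Cycling cells against 7.29 in the other clusters of TGFβR-KO, the lowest ratio of the cytokine receptor list there. It was at 2.13 against 6.48 in the larger and 1.01 against 3.97 in the smaller WT set, and listed at 0 against 3.11 in TGFβR-CA. A UMI was found in 10.4% of Cycling cells labelled TGFβR-KO (4.59 to 19.4) against 53.9% of the other cells, and in 20% (9.58 to 34.6) against 46.0% in TGFβR-WT. Of 21 receptor chains, 4 were lower and none higher in both conditions.

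*Tgfbr2*, the type II TGFβ receptor and the gene floxed in TGFβR-KO (chromosome 9, 116084293 to 116175360), was at 0.434 against 1.51 in TGFβR-KO, 0.332 against 1.81 in the larger WT set, 0 against 1.78 in the smaller and 0.254 against 1.79 in TGFβR-CA. It was lower in Cycling cells of every set, including those with an intact receptor gene, and without shared barcodes the log2 ratio was -1.42 in TGFβR-KO and -2.19 in TGFβR-WT. Tags at the 3′ end need not lie in the deleted part, so this level does not check the TGFβR-KO label. *Tgfbr1* was at 0.0929 against 0.222 in TGFβR-KO and at 0.332 and 0.507 against 0.369 and 2.82 in the TGFβR-WT sets. In the 9 Cycling cells labelled TGFβR-CA, whose label stands for its active form, it was listed at 0, and their other cells had 0.799. Whether the transgene's transcripts were counted under this gene is not known, so these values do not check the TGFβR-CA label. *Smad7*, a feedback inhibitor that TGFβ induces, was at 0.186 against 0.598 and 0.235 against 0.997 in TGFβR-KO and TGFβR-WT. Of 14 genes of the TGFβ response, 3 were lower in both.

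The lists of T cell programs differed from each other. Of 12 TH17 genes, 1 was higher and 0 lower in TGFβR-KO, and 3 were higher and 2 lower in TGFβR-WT. None was higher or lower in both conditions, where 4.1% and 2.13% of all genes tested were, so for 12 genes this says little. *Il17a* had a UMI in 8 of 77 Cycling cells labelled TGFβR-KO and 9 of 45 labelled TGFβR-WT. *Il22*, a cytokine that acts on the epithelium, had one in 32.5% (22.2 to 44.1) against 20.6% of the other cells in TGFβR-KO and 31.1% (18.2 to 46.6) against 10.4% in TGFβR-WT, while its level was 5.33 against 6.80 in TGFβR-KO and 3.05 against 0.949 in TGFβR-WT. The level was 1.46 against 0.819 in the larger WT set, under 2 times, and 15.2 against 1.21 in the few Cycling cells of the smaller. *Ccl5*, a chemokine of effector cells, was at 3.72 against 20.02 in TGFβR-KO and 0.646 against 1.06 in TGFβR-WT. Of 10 TH1 genes, 4 were lower in TGFβR-KO and 1 in TGFβR-WT, against 3.59% and 13.6% of all genes tested. The count in TGFβR-WT thus says little. The study drew the next lists from these cells. Of the 4 genes by which it names its tissue-resident TFH cluster, *Rflnb*, *Gpr183* and *Il7r* were lower in both conditions. Of 10 migratory genes, 3 were lower in both. Of 6 germinal center TFH genes, 3 were lower in TGFβR-WT and none in TGFβR-KO, and of 8 pretumorigenic genes 6 and 1, with medians of -1.88 and -0.27.

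Within the cluster, cells were set along S phase and G2/M by the share of their UMIs from 43 S genes and 54 G2/M genes, each divided by its mean over Cycling cells. By this measure 40 of 77 cells labelled TGFβR-KO leaned to S (51.9%, 40.3 to 63.5), 26 of 45 labelled TGFβR-WT (57.8%, 42.2 to 72.3) and 4 of 9 labelled TGFβR-CA (44.4%, 13.7 to 78.8). The intervals overlap widely, and without shared barcodes the first shares were 51.5% and 59.4%. The measure is a range and not a set of types, and 24 of the 131 cells lay within 0.5 on the log2 scale of the line. G2/M genes took 0.304% to 5.14% of a Cycling cell's UMIs with a median of 1.63%, and 0.185% in the median cell of the other clusters.

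**Figure D4:**
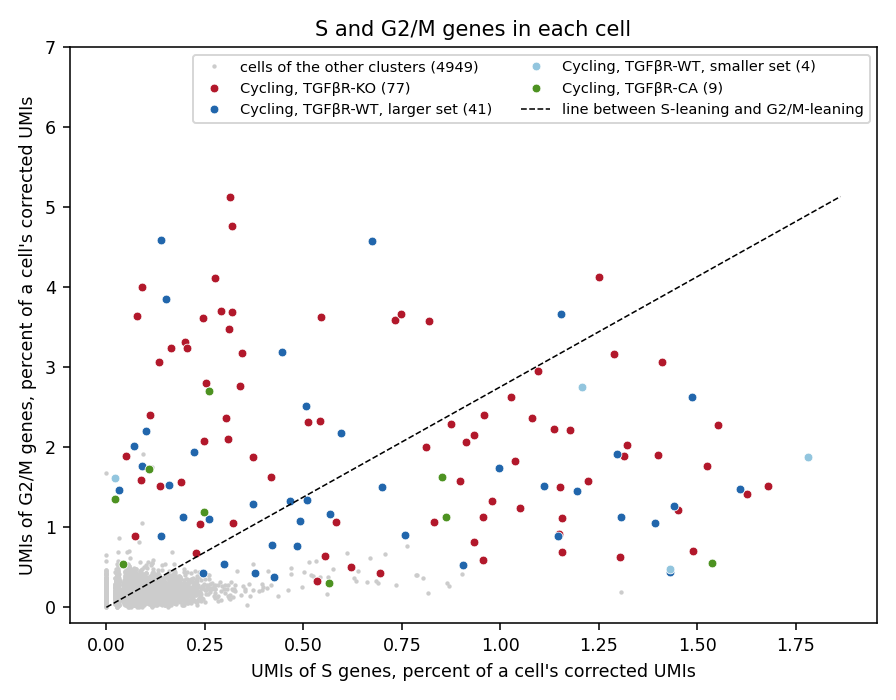
Share of each cell's corrected UMIs from 43 S genes (x) and 54 G2/M genes (y), in percent, for 131 Cycling cells colored by set and 4949 other cells (gray). Cycling cells of TGFβR-KO and of the larger WT set lie on both sides of the dashed line that parts S-leaning from G2/M-leaning cells.

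Genes on neither score list were then compared across the line among 1656 genes, of which 59 (3.56%) were higher in S-leaning and 34 (2.05%) in G2/M-leaning cells. Toward S, *E2f1* was at 1.60 against 0.204, *Cdt1*, the licensing factor degraded once S phase begins, at 1.81 against 0.367, and *Mcm3* at 6.30 against 1.47. Of 12 replisome genes outside the score lists, 9 were higher in S-leaning cells and none in the others. *Penk*, which encodes an opioid peptide precursor, had the highest ratio to S but rested on 5 S-leaning and 3 G2/M-leaning cells, with up to 24 UMIs in 1 cell. Toward G2/M, *Ccnb1*, cyclin B1, was at 2.61 against 0.487, *Cdkn3* at 2.28 against 0.418, *Arl6ip1*, a protein that shapes the endoplasmic reticulum, at 14.6 against 4.32, and *Sun2*, of the nuclear envelope, at 1.71 against 0.522. Histone genes did not lean to S: 0 of 23 were higher in S-leaning and 2 in G2/M-leaning cells, with a median of -0.47.

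The identity of the cells beneath the cycle was examined by leaving out the cell cycle lists and giving each cell to the most likely of the 7 other clusters over 9489 genes. Cells of the other clusters, each left out of its own cluster's profile, were given back to it in 86.3% of cases in TGFβR-KO and 85.0% in TGFβR-WT. These cells lie outside Cycling, so the shares do not say how well a Cycling cell is placed. No setting left out genes for being lower in Cycling cells. Among such genes are *Il7r*, *Gpr183* and *Rflnb*, 3 of the 4 genes naming tissue-resident TFH. How far they set the share given to that cluster was not tested. Of the 77 Cycling cells labelled TGFβR-KO, 23 fell to the migratory cluster, 16 to germinal center TFH, 12 to the tumorigenic, 12 to the activated, 8 to the pretumorigenic and 6 to the CTL cluster. None fell to tissue-resident TFH (0 of 77, which allows a share of up to 3.90% by 3 counts and 4.68% by the exact interval), a cluster with 17.9% of the other cells. Of the 45 labelled TGFβR-WT, 21 fell to migratory, 16 to germinal center TFH, 7 to activated and 1 to tissue-resident TFH (2.22%, 0.0562 to 11.8), which held 47.8% of the other cells. Without shared barcodes the order turned, with 13 of 32 cells in germinal center TFH (40.6%) and 11 in migratory (34.4%), and in TGFβR-KO 19 of 66 fell to migratory and 11 to germinal center TFH. The WT clusters named tumorigenic and CTL hold 5 and 13 cells, 0 of which were given back, and no Cycling cell was given to them.

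**Figure D5:**
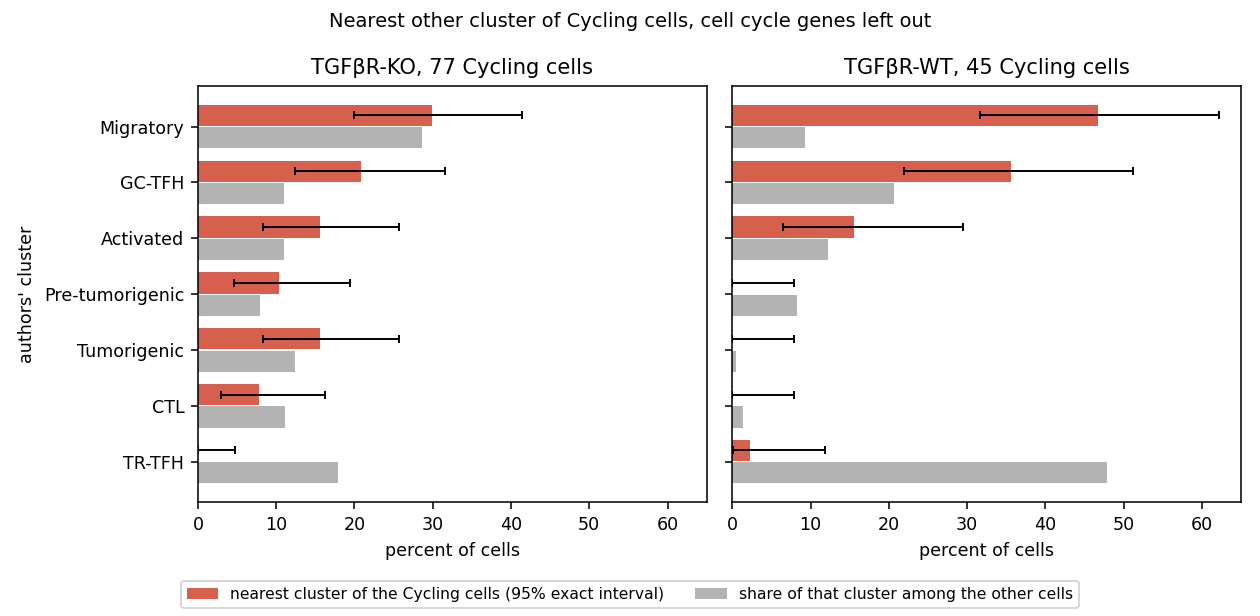
Share of Cycling cells given to each other cluster (red, with exact 95% intervals) and share of that cluster among the other cells (gray), in percent, in TGFβR-KO and TGFβR-WT. Tissue-resident TFH received 0% and 2.22% of Cycling cells while holding 17.9% and 47.8% of the other cells.

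With genes 1.5 times higher in Cycling cells left out as well, tissue-resident TFH received 0% in TGFβR-KO and 8.89% in TGFβR-WT. The order of the remaining clusters also depended on the method. By Spearman's correlation over 2000 genes, the migratory share was 19.5% in TGFβR-KO and 20% in TGFβR-WT, in place of 29.9% and 46.7%, and germinal center TFH received 35.1% in TGFβR-KO in place of 20.8%. Some genes of the clusters followed the assignment in TGFβR-KO, which used them, and others did not. *Ifng* was at 8.39 in Cycling cells given to the tumorigenic cluster and 1.80 in those given to the migratory one, *Bhlhe40*, a transcription factor of inflammatory T cells, at 13.7 and 0.847, and *Gzma*, a granzyme, at 30.1 in those given to CTL and 0 in both of the former. Against this, *Ifng* was at 9.37 in the cells given to CTL, above the tumorigenic ones. *Gzmb*, another granzyme of the CTL list, was at 1.22 in them and at 5.19 in those given to the activated cluster. *Nkg7*, of the CTL list as well, was at 9.37 in them and 9.76 in those given to the tumorigenic cluster. *Il7r* was at 1.06 in the 23 cells given to the migratory cluster and 0 in the 16 given to germinal center TFH.

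Cycling cells labelled TGFβR-KO were last set against those labelled TGFβR-WT, as a comparison of 1 sample with the pooled cells of 2. Of 1720 genes with at least 50 UMIs in Cycling cells, 53 (3.08%) were higher and 19 (1.1%) lower in TGFβR-KO, and 59 and 35 without shared barcodes. The heat shock genes *Hspa1b* and *Hspa1a* led, at 11.9 against 0.598 in the larger WT set and 0 in the smaller, and at 8.40 against 0.531 and 0. A UMI of *Hspa1b* was found in 25 of 77 and 6 of 45 cells, and the same gene was at 9.99 and 4.65 in the other clusters of both conditions. *Hspa1a* was at 64.3 in the 8 Cycling cells given to the pretumorigenic cluster and 0.423 in those given to the migratory one, so 8 of 77 cells held most of it. The pretumorigenic list, which includes both genes, was drawn by the study from these cells.

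By the same order, the next genes higher in TGFβR-KO included the following. *Bhlhe40*, described above, was at 4.06 against 0.664 in the larger WT set and 0 in the smaller, *Nr4a1*, an early gene of T cell receptor signaling, at 1.73 against 0.199 and 0.507, *Nfkbiz*, a nuclear regulator of NF-κB, at 1.46 against 0.133 and 1.01, *Nkg7*, a granule protein, at 4.09 against 0.864 and 0, and *Ccl5* at 3.72 against 0.731 and 0. Each of these was also higher in TGFβR-KO in the other clusters, where *Ccl5* was at 20.02 against 1.06 and *Bhlhe40* at 3.03 against 0.721. Without shared barcodes the log2 ratio in Cycling cells was 3.24 in place of 2.36 for *Ccl5* and 3.20 in place of 2.60 for *Bhlhe40*. *Nr4a1* was at 7.22 in the 12 TGFβR-KO Cycling cells given to the tumorigenic cluster, 3.77 in the 8 given to the pretumorigenic and 0 in those given to the migratory, germinal center TFH and CTL clusters, and *Bhlhe40* was likewise highest in the 12. No TGFβR-WT Cycling cell was given to the tumorigenic or pretumorigenic cluster. The TGFβR-WT tumorigenic cluster holds 5 cells, of which 0 were given back, so its 0 carries no information, while the pretumorigenic one gave back 62 of 79. The assignment used *Nr4a1*, *Bhlhe40* and the heat shock genes themselves. How far the assigned clusters account for the difference between the conditions was not tested. In the other clusters of the same samples, 34 of the 1720 genes were higher and 21 lower in TGFβR-KO.

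Lower in TGFβR-KO were *Cpe*, a carboxypeptidase that trims peptide hormones, at 0.217 against 2.59 and 1.52 in the TGFβR-WT sets, *Mrpl17*, a mitochondrial ribosomal protein, at 0.682 against 1.86 and 3.55, and *Smco4* at 2.60 against 5.98 and 3.55. *Cpe* had a UMI in 4 of 77 cells labelled TGFβR-KO and 17 of 45 labelled TGFβR-WT. *Penk* was at 0.124 against 3.06 and 0, from 3 and 5 cells, and its log2 ratio was -3.65, or -2.86 without shared barcodes. In the other clusters *Cpe*, *Smco4* and *Penk* were lower in TGFβR-KO as well, at 0.344 against 1.30, 2.55 against 6.96 and 0.0896 against 0.840. *Mrpl17* was level there, at 0.603 against 0.668. Of the 53 higher and 19 lower genes, 21 and 11 were called in the same direction in the other clusters. Of the cell cycle lists, 0 of 28 replisome genes, 0 of 20 spindle genes, 2 of 37 genes of the G2/M list, 2 of 12 kinetochore genes, 1 of 18 mitotic genes and 1 of 23 histone genes were higher in TGFβR-KO and none lower. Of all 1720 genes, 3.08% were higher and 1.1% lower, so for lists of this size these counts say little. Medians of these lists, in the same order, were 0.07, 0.49, 0.40, 0.48, 0.46 and 0.48 on the log2 scale against -0.04 for all 1720 genes.

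The share of cells in the cluster was 2.59% in TGFβR-KO (2.05 to 3.22), 5.78% in the larger WT set (4.18 to 7.76), 1.34% in the smaller (0.367 to 3.40) and 0.820% in TGFβR-CA (0.375 to 1.55). Without shared barcodes it was 2.23%, 4.03%, 1.35% and 0.820%. The TGFβR-KO value thus lay between those of both TGFβR-WT sets, and the intervals of the smaller set and TGFβR-CA overlap. Intervals are exact Clopper-Pearson 95% intervals and cover counting error only.

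Cells with many cell cycle UMIs were rare outside the cluster. By the summed share of S and G2/M genes, 99 of 4949 other cells (2.0%) exceeded the lowest Cycling cell, 38 exceeded the 5th percentile of Cycling cells and none the median. Of the 38, 16 belonged to germinal center TFH (780 cells in all), 6 to the activated (565), 5 to the pretumorigenic (392) and 4 to the migratory cluster (972). By label, 29 were TGFβR-KO, which holds 2898 of the 4949 other cells, 7 TGFβR-WT, which holds 962, and 2 TGFβR-CA.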

How the data were processed

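The authors counted 3′ reads on mm10 with Cell Ranger (version 3.1.0 in the submitters' processing notes) and left out cells outside 1000 to 5000 genes or with 10% or more of mitochondrial UMIs. SCTransform normalization, integration in Seurat over 3000 features and clustering (10 dimensions, resolution 0.5) followed, and γδ T cells and epithelial cells were dropped. What the authors deposited is, for 13265 genes in 5080 cells, ln(1 + x), the natural log of the corrected UMI number x plus 1, beside the condition and cluster of each cell. Undoing it gave whole numbers, within 1e-06, for all 7880276 values above 0. As they are not raw counts, no count model was fitted, and the true depth of a cell is unknown.

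Cells named R: were taken as TGFβR-KO from the sample titles. Cells of the cluster were compared with the other 7 clusters within a condition, over genes with at least 50 corrected UMIs in all cells. Genes were named by rule: the 5 markers; for each list, up to 4 highest and 2 lowest by the condition nearer 0, and whole lists of up to 12; the 12 highest and lowest outside the cell cycle lists; 8 in each direction for S against G2/M and for TGFβR-KO against TGFβR-WT; and the receptors. Not all of these are printed, some are not reported here, and *Mcm5* was added after its values were seen. Members, lists and rules were chosen with earlier results of these data known. For the nearest cluster, each cell's UMIs were scored by a multinomial likelihood on the cluster profiles. Doublets were called by Scrublet within each set and left in. Of the table's symbols, 13145 were placed with GENCODE vM21, also GRCm38. The steps were tested on simulated data. Python 3.11.15, numpy 2.4.6, scipy 1.17.1, pandas 2.3.3, scanpy 1.11.5 and matplotlib 3.10.9 were used.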

Additional observations from a re-analysis of the deposited data

How the results depend on the processing

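No paired analysis was possible because only TGFβR-WT has a second sample and no label ties its cells to their samples. Under the alternatives 125 values stayed within the range set for them and 33 did not. The range was 1.5 times for counts and ratios and the counting interval for shares. A change of direction was looked for only in the TGFβR-KO over TGFβR-WT ratios of the 8 genes named in each direction. None changed, but these genes were picked for their large ratios, so this says little. With 0.5 added to each level, 284 genes were higher in Cycling cells in TGFβR-KO, 273 in TGFβR-WT, with 216 shared by both, and 59, 208 and 41 were lower. In the lists, 4 CDK inhibitors and quiescence genes were then lower in both and 0 proteasome genes higher. Between TGFβR-KO and TGFβR-WT, 24 genes were then higher and 9 lower, and 35 were lower without shared barcodes. The 4 Cycling cells of the smaller WT set, taken alone, gave 1392 genes higher, 426 of them shared with the 643 of pooled TGFβR-WT, and 3652 lower, by construction of so few UMIs. With 50 UMIs required outside the cluster, a limit chosen after seeing the data, 21 G2/M, 8 mitotic and 14 spindle genes were higher in both, since fewer genes were tested. The TGFβR-WT share of Cycling cells was 3.23% without shared barcodes and 1.34% in the smaller set, against 4.47%. Spearman's correlation gave the migratory cluster 19.5% of Cycling cells in TGFβR-KO and 20% in TGFβR-WT, and germinal center TFH 35.1% in TGFβR-KO. Leaving out genes 1.5 times higher in Cycling cells gave germinal center TFH 20% in TGFβR-WT, against 35.6%. The cause of these shifts in assignment was not tested. The 9 Cycling cells labelled TGFβR-CA and the 4 of the smaller WT set limit every value from them.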
